A study of Mus musculus with 20 samples.

Results

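The 42 genes described here encode proteins of the lysosome. They were a list of lysosomal enzymes, membrane proteins and proton pump subunits, and each gene was the sum of its transcript rows in a table that summed to 55260 genes. The list held 11 proteases, namely the cathepsin genes Ctsa, Ctsb, Ctsc, Ctsd, Ctsf, Ctsh, Ctsk, Ctsl, Ctss and Ctsz and the legumain gene Lgmn. It held 10 glycosidase genes (Gusb, Hexa, Gla, Glb1, Gaa, Naglu, Neu1, Man2b1, Manba and Fuca1) and 7 genes of lipid handling (Asah1, Lipa, Npc1, Npc2, Psap, Gm2a and Smpd1). The others were 6 genes of membrane proteins (Lamp1, Lamp2, Cd68, Scarb2, Cln3 and Mcoln1), 3 genes of other lumenal proteins (Tpp1, Ppt1 and Grn) and 5 genes of the proton pump (Atp6v0d1, Atp6v0d2, Atp6v1a, Atp6v1h and Atp6ap1). Each library had counts for 41 or all 42 of them.

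RNA was sequenced from leukocytes sorted out of MC38-OVA tumours in C57BL/6 mice. MC38-OVA is a mouse colon carcinoma line made to express the model antigen ovalbumin. In each of the 5 treatment groups the leukocytes of 10 tumours, 1 per mouse, were pooled and sorted into 4 populations, which gave 20 libraries and 1 library per population and treatment. The populations were CD8 T cells, CD11c+CD11b+ cells and CD11c+CD11b- cells, both labelled dendritic cells, and CD11c-CD11b+ cells, labelled myeloid cells. The treatments were none, with sham irradiation; radiotherapy alone (RT), a focal dose of 8 Gy on day 12; RT with anti-SIRPa, 400 µg on days 12, 14 and 16; RT with anti-PD-1, 250 µg on days 12 and 15; and RT with both antibodies. SIRPa restrains phagocytes when it binds CD47, and PD-1 restrains activated T cells. All tumours were taken on day 17, which was 5 days after RT. Since each group was a single library, tests took their error from the spread between pools of different treatment. Where 5 values are listed, the untreated pool comes first, then RT alone, the pools with anti-SIRPa and with anti-PD-1, and last the pool with both antibodies; lists of 4 irradiated values leave out the first.

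Lysosomes are acidic compartments in which proteins, glycans and lipids taken up from outside or delivered from inside the cell are broken down. A proton pump of the V-ATPase type acidifies the lumen, and most soluble hydrolases reach it by mannose 6-phosphate tags. Macrophages rely on this compartment to digest engulfed cells, while dendritic cells also use its proteases to cut antigens and the invariant chain for presentation on MHC class II. Many lysosomal genes are activated by the MiT/TFE transcription factors, which bind an E-box centred on CACGTG.

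Promoters were looked at for that motif, because the genes below differed between populations largely in the same direction. Promoter sequences, each covering 250 bases before to 50 bases after a start site, were found for 36 of the 42 genes in RefSeq (GRCm38.p6). Ctsb, Asah1, Atp6v0d2, Atp6v1h, Ctsh and Npc1 were not among them. The 8-base palindrome TCACGTGA, which reads the same on both strands and contains CACGTG, was present in 7 of 40 promoters of these genes (17.5%) and in 0.974% of all 32851 promoters. The shorter CACGTG was present in 14 of the 40 (35%) and in 7.15% of all. The 7 windows with the longer motif are shown because they carry the letters that MiT/TFE factors are known to bind. They run 5′ to 3′ on the gene's strand, with the motif in capitals and up to 20 bases on either side.
Atp6v0d1: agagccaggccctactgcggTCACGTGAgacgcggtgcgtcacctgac
Atp6v1a: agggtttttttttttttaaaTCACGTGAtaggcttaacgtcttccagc
Cln3: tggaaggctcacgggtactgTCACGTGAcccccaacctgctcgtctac
Ctsa: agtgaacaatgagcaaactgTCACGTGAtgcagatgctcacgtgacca
Ctsd: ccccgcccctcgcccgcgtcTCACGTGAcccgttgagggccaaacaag
Gla: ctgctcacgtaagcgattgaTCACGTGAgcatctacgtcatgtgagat
Mcoln1: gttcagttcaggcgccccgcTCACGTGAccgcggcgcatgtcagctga

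The windows lie at chr8:105566041-105566088 on the minus strand for Atp6v0d1, chr16:44139364-44139411 minus for Atp6v1a, chr7:126583331-126583378 minus for Cln3 and chr2:164833740-164833787 plus for Ctsa. They lie at chr7:142387899-142387946 minus for Ctsd, chrX:134601206-134601253 minus for Gla and chr8:3500453-3500500 plus for Mcoln1. The motif began 4 bases before the start site in Atp6v0d1, 13 in Ctsa, 46 in Mcoln1, 99 in Ctsd, 122 in Cln3, 132 in Atp6v1a and 228 in Gla. The promoters of Ctsa and Gla held 2 copies each, of which the first is in capitals. These matches are a description of letters and say nothing of binding in these cells.

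Libraries held 21522743 to 35696925 estimated counts. The genes of the sort followed the gates. Itgax, which encodes CD11c, was at 264 to 417 CPM (counts scaled to a common library size by TMM) in the 2 CD11c+ populations and at 71.5 to 122 CPM in CD11c-CD11b+ cells. Itgam, which encodes CD11b, was at 57.8 to 117 CPM in CD11c+CD11b- cells and at 749 to 1870 CPM in the 2 CD11b+ populations. The library labelled untreated CD8 T stood apart. Cd8a was at 48.2 CPM there against 759 to 1180 CPM in the irradiated CD8 T libraries, and the summed level of 12 macrophage markers was 18990 CPM against 1229 to 2780 CPM. It was kept out of the main tests. The 2 populations labelled dendritic cells also held other markers: macrophage markers summed to 7641 to 14770 CPM in CD11c+CD11b+ cells, and 7 NK cell markers summed to 899 to 1319 CPM in CD11c+CD11b- cells.

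The 42 genes together took the largest share of counts in CD11c+CD11b+ cells and the smallest in CD11c+CD11b- cells and irradiated CD8 T cells. Their share in CD11c+CD11b+ cells was 1.77, 2.44, 2.46, 2.58 and 2.63% (mean 2.38% ± 0.348, SD over 5 pools). In CD11c-CD11b+ cells it was 1.47, 1.8, 1.46, 2.21 and 2.03% (1.79% ± 0.334). The ranges of these 2 populations overlapped, but CD11c+CD11b+ cells were higher in all 5 pools. In CD11c+CD11b- cells the share was 0.699, 0.984, 0.683, 1.02 and 0.845% (0.846% ± 0.156). In the 4 irradiated CD8 T libraries it was 0.856, 0.774, 0.602 and 0.696% (0.732% ± 0.109), which overlapped with the CD11c+CD11b- range. The library labelled untreated CD8 T was at 2.66%, above the other 19 libraries. In such sorted pools fewer cells of a type and less RNA per cell cannot be told apart.

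**Figure D1:**
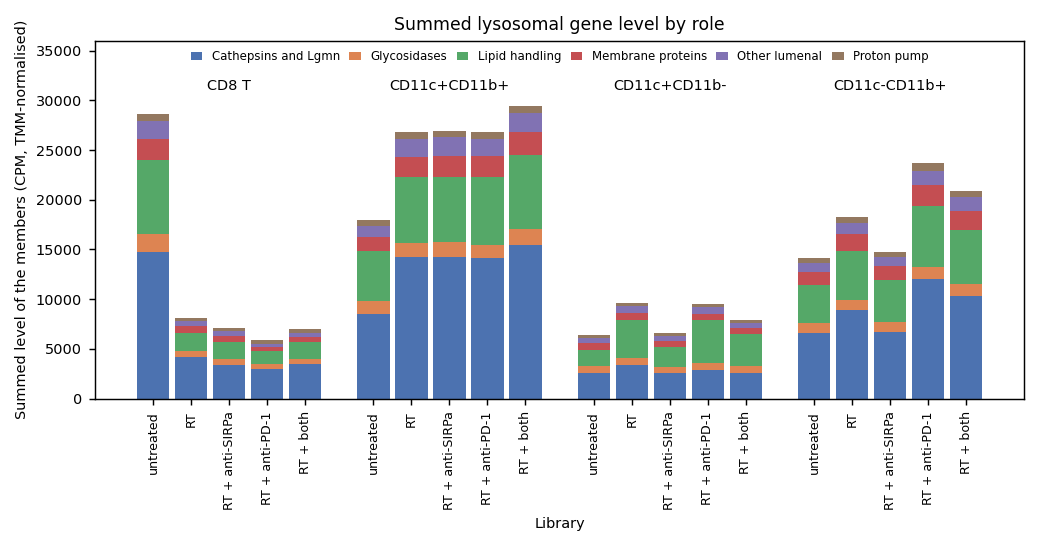
Summed level of the 42 lysosomal genes in each library, in TMM-normalised CPM on a linear axis from 0, with bars split by role. Each bar is 1 library. The CD11c+CD11b+ bars are the tallest of the 3 myeloid populations in every pool, and the library labelled untreated CD8 T stands far above the 4 irradiated CD8 T libraries.

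Per kilobase of transcript, Ctss, Psap, Lgmn, Ctsd and Ctsc had the highest summed levels over the 20 libraries, a sum that includes the library labelled untreated CD8 T. The order differed between populations: in CD11c+CD11b- cells Lgmn (88.3 CPM per kb) and Ctsc (79.2) lay below Ctsd (317), Grn (160), Ctsz (140), Ctsl (121), Lamp1 (119) and Ctsb (110.0). Ctss encodes cathepsin S, the protease that trims the invariant chain. It averaged 2760 ± 609 CPM per kb in CD11c+CD11b+ cells, 1600 ± 496 in CD11c-CD11b+ cells and 334 ± 95.5 in CD11c+CD11b- cells (SD, 5 pools each). Psap encodes prosaposin, the precursor of the saposins that present sphingolipids to their hydrolases. It averaged 1631 ± 250 CPM per kb in CD11c+CD11b+ cells and 757 ± 315 in CD11c+CD11b- cells, where it ranked above Ctss. At the other end, Ctsf and Ctsk were the proteases at or near the limit of detection in most libraries. Ctsf was below 2.6 CPM in all 20, and 2 libraries had no count of it. Ctsa, Glb1, Npc1, Cln3 and Ppt1 overlap Pltp, Tmppe, Rmc1, Apobr and Cap1, neighbours with at least 10% of their counts. Tmppe lies on the same strand as Glb1, so the use of strand could not separate that pair. For the others, whether counting used strand was not stated. Reads of such a pair may have been split between its genes, so these levels are uncertain. Most counts of Ppt1 (85.5%) were on a transcript annotated as a target of nonsense-mediated decay, and most of Ctsf (62.0%) and Neu1 (56.6%) on transcripts with a retained intron.

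**Figure D2:**
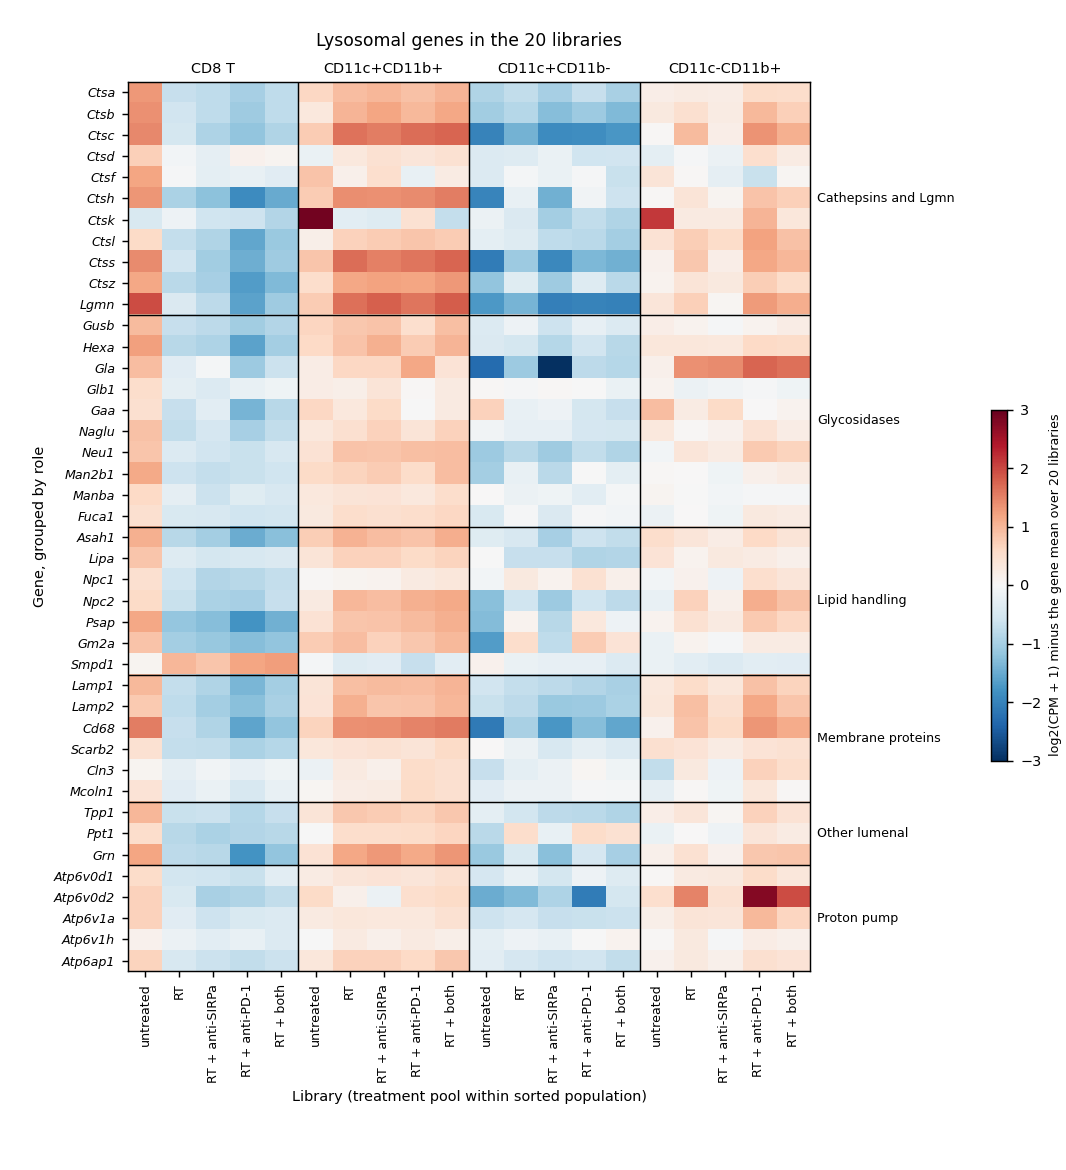
Level of each lysosomal gene in the 20 libraries, as log2(CPM + 1) minus the gene's own mean, with genes grouped by role in rows and libraries in columns. Red is above and blue below the gene's mean. Most rows are red in CD11c+CD11b+ cells and blue in CD11c+CD11b- cells and irradiated CD8 T cells. Smpd1 is red in the irradiated CD8 T libraries, and Ctsk is red in the untreated libraries of the 2 CD11b+ populations.

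CD11c+CD11b- cells had far less lysosomal RNA than CD11c+CD11b+ cells, across every role. Of the 42 genes, 36 were lower and 0 higher in edgeR's quasi-likelihood test at an adjusted p under 0.05, where 22.3% of all genes tested were lower and 23.1% higher. The median log2 fold change was -1.29, against 0.00 over all genes. DESeq2 called 39 lower and 0 higher. All 10 glycosidase genes, all 6 genes of membrane proteins and all 5 proton pump genes passed, with 9 of 11 proteases, 4 of 7 genes of lipid handling and 2 of 3 others.

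The largest gaps were in proteases of the endocytic pathway. Lgmn, an asparaginyl endopeptidase that also processes cathepsins (chr12:102394084-102439813), was at 186, 234, 150, 153 and 152 CPM in CD11c+CD11b- cells. In CD11c+CD11b+ cells it was at 1055, 1940, 2151, 1906 and 2177 CPM. The lowest CD11c+CD11b+ library was above the highest CD11c+CD11b- library, and the log2 fold change was -3.38 ± 0.223 (SE; edgeR adjusted p = 3.92e-05). Ctsc, which activates granule serine proteases (chr7:88278085-88310888), was at 171, 256, 185, 189 and 204 CPM against 1156, 2135, 1987, 2206 and 2311 CPM. Its groups did not overlap either, with a log2 fold change of -3.27 ± 0.137 (edgeR adjusted p = 7.95e-06). Ctss (chr3:95526786-95556403) was at 306, 620, 341, 518 and 481 CPM against 2338, 4194, 3733, 3994 and 4441 CPM. That was a log2 fold change of -3.07 ± 0.119 (edgeR adjusted p = 6.96e-06).

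Cd68, a heavily glycosylated membrane protein of phagocytes, showed the same order. Its level was 37.8, 84.2, 48.9, 68.0 and 56.3 CPM in CD11c+CD11b- cells and 266, 434, 439, 466 and 490 CPM in CD11c+CD11b+ cells (log2 fold change -2.86 ± 0.127; edgeR adjusted p = 9.13e-06). Among the glycosidases Gla, the alpha-galactosidase that is deficient in Fabry disease, differed most. It was at 4.66, 12.2, 2.30, 15.2 and 14.4 CPM against 32.0, 42.1, 42.5, 62.1 and 36.1 CPM (log2 fold change -2.35 ± 0.391; edgeR adjusted p = 0.00246). Its 2 lowest libraries within CD11c+CD11b- cells were the untreated and the RT with anti-SIRPa pools.

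The 6 genes that did not pass were Ctsf, Ctsk, Npc1, Gm2a, Smpd1 and Ppt1. Npc1, the membrane transporter that exports cholesterol, was at 127, 163, 144, 185 and 149 CPM in CD11c+CD11b- cells and at 136, 142, 143, 162 and 169 CPM in CD11c+CD11b+ cells. The groups overlapped and the log2 fold change was 0.02 ± 0.0743. Its partner in the lumen, Npc2, which hands cholesterol to the transporter, was lower by a log2 fold change of -1.76 ± 0.0898 (edgeR adjusted p = 1.45e-05). Npc2 was at 278 ± 54.7 against 942 ± 196 CPM (SD, 5 pools). The 7 genes whose promoters are printed above were all lower, with log2 fold changes from -2.35 (Gla) to -0.49 (Mcoln1). Since 36 of the 42 genes were lower, this does not set these 7 apart from the rest. The part of the motif was not tested.

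**Figure D3:**
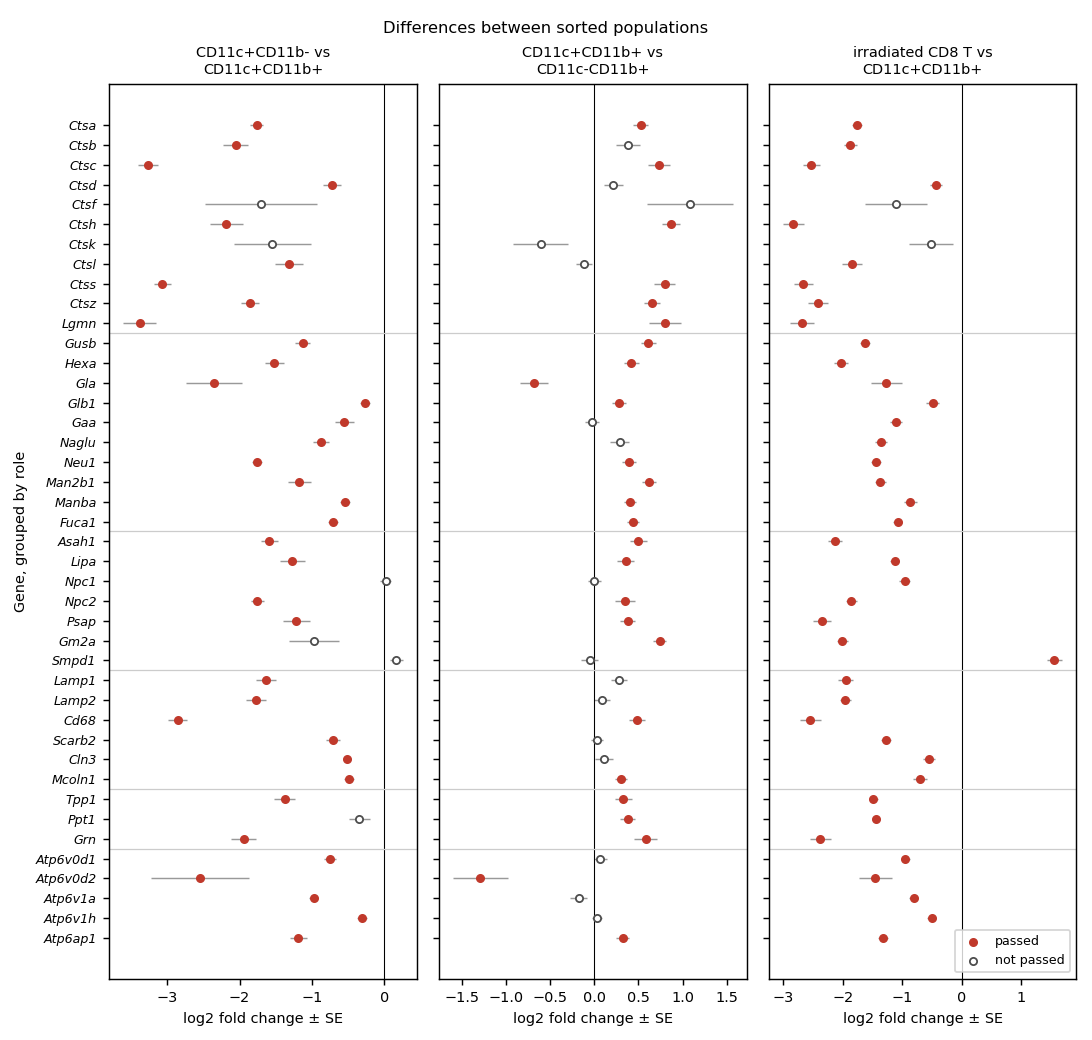
Log2 fold change of each lysosomal gene with its standard error in 3 comparisons of sorted populations, with genes grouped by role. Filled points passed edgeR's test at an adjusted p under 0.05 over all genes, and open points did not. Nearly all points in the left and right panels lie below 0, and most in the middle panel lie above it.

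Among the other genes of the pathway, the sets of hydrolases, pump subunits and transcription factors were also mostly lower in CD11c+CD11b- cells. Of 13 other pump subunits 12 were lower, and of 20 other hydrolases 18 were lower and 2 higher. All 4 genes of MiT/TFE factors were lower. Tfec was at 0.919, 2.07, 1.45, 1.63 and 1.43 CPM against 14.2, 26.2, 20.3, 37.7 and 28.2 CPM (log2 fold change -4.05 ± 0.154; edgeR adjusted p = 6.57e-06). Mitf was at 9.41, 7.36, 5.42, 5.89 and 6.53 CPM against 34.6, 50.8, 41.8, 57.4 and 60.3 CPM (log2 fold change -2.82 ± 0.208; edgeR adjusted p = 6.60e-05). Tfe3 and Tfeb differed less, with log2 fold changes of -1.37 and -0.94. Of 12 other lysosomal membrane proteins 10 were lower, led by Slc11a1, the divalent metal transporter of phagosomes, at 11.9 ± 2.10 against 164 ± 27.5 CPM.

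A few pathway genes went the other way. Cst7, which encodes cystatin F, an inhibitor of cathepsins in the endocytic pathway, was at 65.3, 83.4, 107, 72.8 and 82.4 CPM in CD11c+CD11b- cells. It was at 4.47, 4.77, 5.51, 5.38 and 4.03 CPM in CD11c+CD11b+ cells, a log2 fold change of 4.07 ± 0.117 (edgeR adjusted p = 5.89e-06). Arsb, the arylsulfatase that removes sulfate from dermatan and chondroitin sulfate, was at 455 ± 66.0 against 51.3 ± 8.2 CPM (log2 fold change 3.14 ± 0.151; edgeR adjusted p = 1.19e-05). Igf2r, the large mannose 6-phosphate receptor, was at 108 ± 23.6 against 32.2 ± 6.72 CPM (log2 fold change 1.73 ± 0.141; edgeR adjusted p = 0.000102). Of the 6 genes of mannose 6-phosphate sorting 2 were higher and 2 lower. The list of 12 macrophage markers was also lower throughout in this population, with a median log2 fold change of -3.85 and a sum of 505 to 1212 CPM against 7641 to 14770 CPM. NK and T cell markers were higher, at 899 to 1319 and 592 to 890 CPM against 39.6 to 59.6 and 25.4 to 39.6 CPM in CD11c+CD11b+ cells. The part of these markers in the lysosomal differences was not tested.

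The 2 CD11b+ populations were closer to each other. In CD11c+CD11b+ cells 24 of the 42 genes were higher and 2 lower than in CD11c-CD11b+ cells, where 12.0% of all genes were higher and 12.9% lower, and the median log2 fold change was 0.35 against -0.01. The passing genes were 6 of 11 proteases, 7 of 10 glycosidases in the higher direction, 5 of 7 genes of lipid handling, all 3 other lumenal genes, 2 of 6 membrane protein genes and Atp6ap1. Ctsh, an aminopeptidase that matures surfactant proteins in the lung, had the largest difference among the higher genes. It was at 387, 603, 589, 613 and 659 CPM in CD11c+CD11b+ cells and at 234, 298, 241, 415 and 374 CPM in CD11c-CD11b+ cells (log2 fold change 0.87 ± 0.104; edgeR adjusted p = 0.000816). The groups overlapped, while CD11c+CD11b+ cells were higher in all 5 pools. Lgmn and Ctss followed with log2 fold changes of 0.80 ± 0.185 and 0.80 ± 0.121. Gm2a, the activator that lifts the ganglioside GM2 to hexosaminidase, was at 576, 642, 553, 594 and 668 CPM against 296, 364, 332, 407 and 404 CPM. Its groups did not overlap (log2 fold change 0.74 ± 0.0741; edgeR adjusted p = 0.000424).

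The 2 lower genes were Gla and Atp6v0d2. Gla was at 30.1, 71.2, 74.3, 93.2 and 86.8 CPM in CD11c-CD11b+ cells, above the CD11c+CD11b+ value in every pool but the untreated one (log2 fold change -0.68 ± 0.156; edgeR adjusted p = 0.0131). Atp6v0d2 encodes a pump subunit best known from osteoclasts and some macrophages (chr4:19876841-19922605). Its level in CD11c-CD11b+ cells was 5.01, 11, 4.81, 27.7 and 15.6 CPM, against 5.29, 3.70, 2.75, 5.06 and 5.30 CPM in CD11c+CD11b+ cells (log2 fold change -1.29 ± 0.311; edgeR adjusted p = 0.0162). This comparison depended on the pairing by pool, since 9 genes passed without the pool as a term. Without the RT pool 13 genes passed. Of the markers, 11 of 12 macrophage genes were higher in CD11c+CD11b+ cells, with a median log2 fold change of 0.69, as were 7 of 8 cDC1, 7 of 8 cDC2 and 6 of 7 mature dendritic cell genes. All 8 neutrophil markers tested, 6 of 7 fibroblast and all 10 CD8 T markers were lower, and the part of these markers was not tested.

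Against CD11c-CD11b+ cells, CD11c+CD11b- cells were again lower, in 34 of the 42 genes, with 0 higher. Over all genes 24.1% were lower and 23.0% higher, and the median log2 fold change of the 42 was -0.97 against 0.00. The gap was largest in Atp6v0d2 (-3.68 ± 0.772), a gene of at most 1.96 CPM in CD11c+CD11b- cells, and in Gla (-3.01 ± 0.368), Lgmn (-2.55 ± 0.223), Ctsc (-2.51 ± 0.189), Cd68 (-2.36 ± 0.133) and Ctss (-2.25 ± 0.111). The 8 genes that did not pass were Ctsf, Glb1, Manba, Npc1, Gm2a, Smpd1, Mcoln1 and Ppt1. All 12 macrophage markers (summed 505 to 1212 against 4518 to 8769 CPM) and all 8 neutrophil markers tested were lower too, while all 7 NK and all 7 mature dendritic cell markers were higher, and their part was not tested. These comparisons share libraries with those above and are not independent of them.

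CD8 T cells were set against CD11c+CD11b+ cells in the 4 irradiated pools. Of the 42 genes 39 were lower and 1 higher, where 25.7% of all genes were lower and 24.4% higher, and the median log2 fold change was -1.44 against 0.01. The higher gene was Smpd1, the acid sphingomyelinase that releases ceramide (chr7:105554360-105558389). In CD8 T cells it was at 45.4, 40.4, 52.4 and 54.5 CPM, and in CD11c+CD11b+ cells at 16.8, 17.3, 13.5 and 17.8 CPM. The groups did not overlap, and the log2 fold change was 1.56 ± 0.133 (edgeR adjusted p = 0.000165). Ctsf and Ctsk did not pass. Ctsd, the main aspartic protease of lysosomes, was among the least different, at 832, 730, 968 and 932 CPM against 1106, 1214, 1139 and 1223 CPM (log2 fold change -0.44 ± 0.102; edgeR adjusted p = 0.0115).

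The largest gaps were in Ctsh (-2.83 ± 0.177), Lgmn (-2.69 ± 0.196), Ctss (-2.66 ± 0.156), Cd68 (-2.55 ± 0.181) and Ctsc (-2.53 ± 0.137). Psap was at 1076, 992, 685 and 884 CPM in CD8 T cells and at 4299, 4364, 4635 and 5020 CPM in CD11c+CD11b+ cells, and its log2 fold change was -2.35 ± 0.152 (edgeR adjusted p = 6.30e-05). Arsb, Pld3, Igf2r, Gnptg and Cst7 were higher in CD8 T cells. Igf2r was at 267 ± 48.5 against 33.4 ± 7.12 CPM (SD, 4 pools) and Cst7 at 92.4 ± 21.7 against 4.92 ± 0.677 CPM. Macrophage markers summed to 1229 to 2780 CPM in these CD8 T libraries against 11950 to 14770 CPM in CD11c+CD11b+ cells. With the untreated pool added, 16 genes passed.

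In CD11c+CD11b+ cells most of the genes were higher in the irradiated pools than in the untreated one. In 33 of the 42 all 4 irradiated libraries lay above the untreated library, and in 4 all lay below it, where 31.1 and 27.6% of all genes did so. The median log2 fold change was 0.33 against 0.02 over all genes. With 1 untreated library, the test passed only Ctsk, which was lower (0.266% of all genes were lower), while 22 genes (52.4%) had an unadjusted p under 0.05, against 18.5% of all genes. DESeq2 called 16, of which 15 were higher.

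Of the 11, 10 had an unadjusted p under 0.05, though none of these passed after adjustment except Ctsk. The irradiated libraries had 1906 to 2177 CPM of Lgmn, against 1055 CPM in the untreated one (log2 fold change 0.94 ± 0.16; edgeR adjusted p = 0.0565). Ctsc was at 1987 to 2311 CPM against 1156 CPM (0.89 ± 0.175; edgeR adjusted p = 0.0756), and Grn, the progranulin gene, at 1397 to 1583 CPM against 851 CPM (0.80 ± 0.148; edgeR adjusted p = 0.069). In this population the summed level of the proteases was 8516 CPM in the untreated library and 14100 to 15440 CPM in the irradiated ones. The glycosidases moved less, with a sum of 1320 CPM against 1331 to 1597 CPM. All 12 macrophage markers were also higher in the 4 irradiated libraries, with a sum of 11950 to 14770 CPM against 7641 CPM, and their part in these differences was not tested.

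Ctsk, a collagenolytic protease of osteoclasts and fibroblasts (chr3:95499256-95509362), fell. It was at 23.5 CPM in the untreated CD11c+CD11b+ library and at 1.64, 1.53, 3.49 and 1.02 CPM in the irradiated ones, a log2 fold change of -3.62 ± 0.539 (edgeR adjusted p = 0.0475). In CD11c-CD11b+ cells it was at 13.4 CPM untreated and 2.98, 2.95, 5.65 and 3.18 CPM irradiated. In CD11c+CD11b- cells it was at 1.93 and then 1.44, 0.631, 0.961 and 0.754 CPM. The untreated library was the highest in each of the 3 populations. The sum of 7 fibroblast markers was also highest there, at 4871 against 797 to 1821 CPM in CD11c+CD11b+ cells, and its part in the Ctsk difference was not tested. Ctsk no longer passed when low-count genes were kept, when the filter followed the design, or without the RT or the RT with both pool, each of which left 0 genes. Without the RT with anti-SIRPa pool 15 genes passed, and with antibody terms 17.

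**Figure D4:**
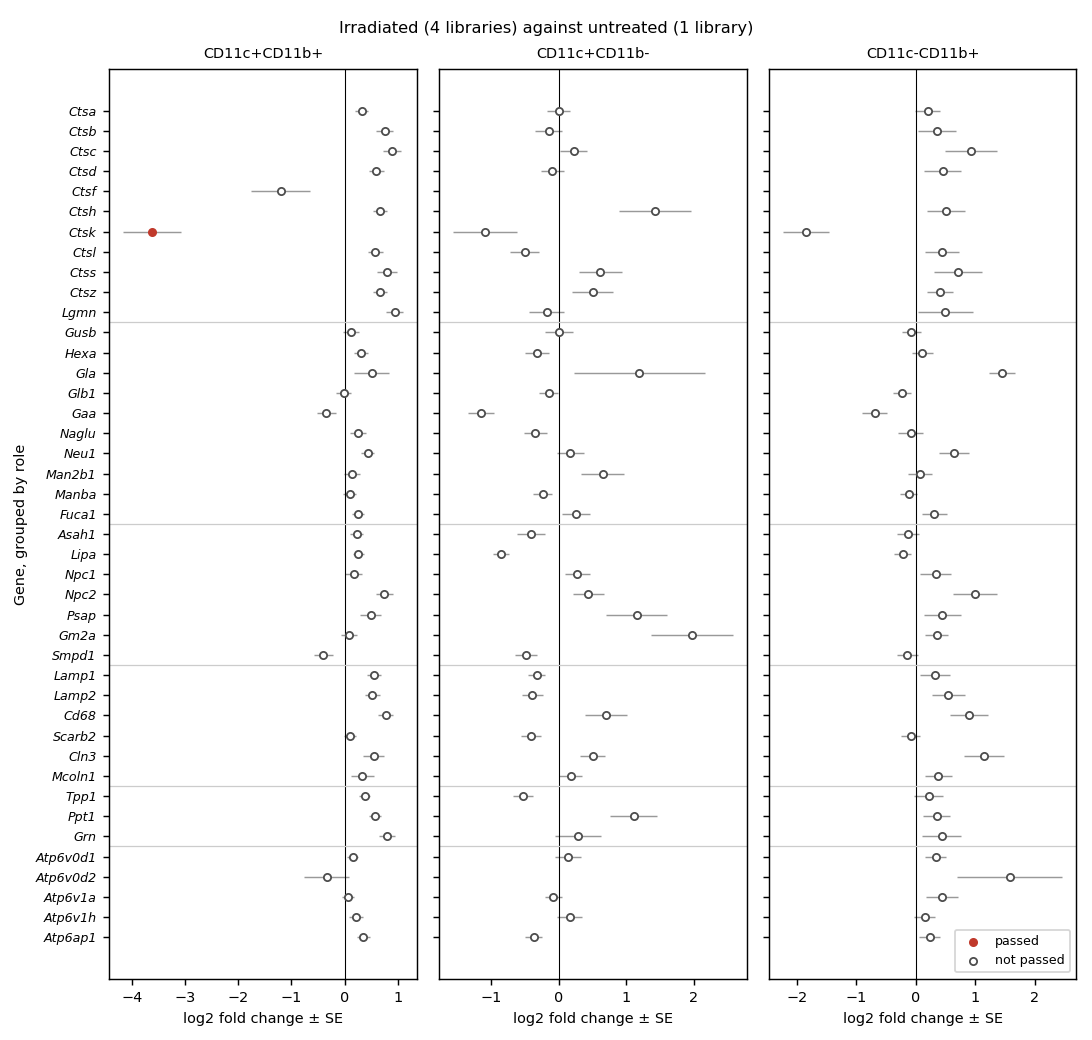
Log2 fold change of each lysosomal gene, with its standard error, between the 4 irradiated libraries and the 1 untreated library of 3 myeloid populations. Filled points passed edgeR's test at an adjusted p under 0.05 over all genes, and open points did not, and genes not tested have no point. Most points lie above 0 in CD11c+CD11b+ cells, while those of CD11c+CD11b- cells lie on both sides, and each panel has its own axis.

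CD11c+CD11b- cells showed no common direction after irradiation. All 4 irradiated libraries were above the untreated one in 16 genes and below it in 14, where 37.8 and 27.1% of all genes were, and the median log2 fold change was 0.00 against 0.02. Of 40 genes tested 0 passed in edgeR (0.0185% of all genes did), 13 had an unadjusted p under 0.05 and DESeq2 called 6. Without the RT with anti-SIRPa pool 11 passed, and with antibody terms 9. The values themselves spread widely. Gm2a was at 105 CPM untreated and 493, 200, 573 and 452 CPM irradiated (log2 fold change 1.97 ± 0.605; edgeR adjusted p = 0.113). Lipa, the lysosomal acid lipase that splits cholesteryl esters (chr19:34492318-34527474), was at 84.3 CPM untreated and 52.1, 52.1, 45.3 and 45.6 CPM irradiated (log2 fold change -0.86 ± 0.12; edgeR adjusted p = 0.0659). Gaa, the acid alpha-glucosidase that degrades glycogen, was at 129 CPM and then 68.1, 72.3, 55 and 49.4 CPM. These lower values were not particular to CD11c+CD11b- cells. Gaa was at 124 CPM untreated and 79.5 to 119 CPM irradiated in CD11c+CD11b+ cells. In CD11c-CD11b+ cells Gaa was at 154 CPM and then 80.3 to 119 CPM, and Lipa at 115 CPM and then 91.6 to 104 CPM. In CD11c+CD11b- cells all 7 fibroblast markers were likewise below the untreated library in the 4 irradiated ones, with a sum of 452 to 1672 against 6560 CPM. So were 8 of 12 macrophage markers, with a sum of 505 to 1107 against 1212 CPM. The part of these markers in the lower values of Lipa and Gaa was not tested.

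Several genes of this population were lowest in the same 2 pools. In 19 of the 42 (45.2%) the untreated and the RT with anti-SIRPa libraries were the 2 lowest of 5, as in 21.5% of all genes, a count made after the values were seen. Psap was at 974, 2576, 1345, 2969 and 2153 CPM and Ctsh at 56.9, 196, 83.3, 212 and 148 CPM. Ppt1, a thioesterase that removes palmitate from proteins, was at 77.1, 194, 115, 199 and 185 CPM. This order was not particular to CD11c+CD11b- cells. In CD11c-CD11b+ cells the same 2 pools were lowest for Psap, at 2575, 3286, 2877, 4136 and 3658 CPM. They were also lowest there for Ctsh (234, 298, 241, 415 and 374 CPM) and Ppt1 (117, 136, 122, 174 and 159 CPM). Markers of other dendritic cell types were low in the same 2 libraries of CD11c+CD11b- cells. The sum of 8 plasmacytoid markers was 416, 847, 427, 1092 and 710 CPM, that of 8 cDC1 markers 739, 2749, 1705, 3345 and 2734 CPM and that of 7 markers of mature dendritic cells 443, 1655, 831, 1962 and 1462 CPM. Siglech, a plasmacytoid marker, was at 11, 171, 47.2, 231 and 124 CPM. The sum of 8 cDC2 markers was 127, 360, 153, 320 and 256 CPM. Fibroblast markers went the other way and were highest in these 2 libraries, with a sum of 6560, 961, 1672, 452 and 493 CPM. The part of these markers in the lysosomal differences was not tested.

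In CD11c-CD11b+ cells the median was close to that of CD11c+CD11b+ cells, with fewer genes at a small p. All 4 irradiated libraries were above the untreated one in 22 genes and below it in 8, where 31.6 and 32.5% of all genes were, and the median log2 fold change was 0.35 against 0.01. None of 41 genes tested passed in edgeR (0% of all genes did), 7 had an unadjusted p under 0.05, and DESeq2 called 3. Without the RT with anti-SIRPa pool 11 passed. Gla was at 30.1 CPM untreated and 71.2, 74.3, 93.2 and 86.8 CPM irradiated (log2 fold change 1.44 ± 0.22; edgeR adjusted p = 0.15). Cln3, a membrane protein lost in a juvenile form of neuronal ceroid lipofuscinosis, was at 29.5 CPM and then 61.5, 44.9, 80.6 and 72 CPM (1.15 ± 0.337; edgeR adjusted p = 0.167). In the 4 irradiated libraries 6 of 7 inflammatory monocyte markers were above the untreated one, with a sum of 2771 to 3710 against 2008 CPM, and 6 of 7 fibroblast markers were below it, with a sum of 1348 to 2947 against 6263 CPM. The sum of 9 neutrophil markers was 898 CPM untreated and 698, 3267, 1681 and 1066 CPM irradiated. The part of these markers was not tested.

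The difference in irradiation response between populations was tested with an interaction term, added after the values were seen. Between CD11c+CD11b+ and CD11c+CD11b- cells 2 of 42 genes passed, both in the direction of a higher response in CD11c+CD11b+ cells (0.240% of all genes). Lipa was at 112 CPM untreated and 139, 138, 127 and 137 CPM irradiated in CD11c+CD11b+ cells, in contrast to its lower irradiated values in CD11c+CD11b- cells. The difference of the 2 responses was 1.04 ± 0.131 on the log2 scale (edgeR adjusted p = 0.0254). Lamp2, a membrane protein needed for chaperone-mediated autophagy (chrX:38401357-38456454), was at 309 CPM untreated and 490, 413, 421 and 463 CPM irradiated in CD11c+CD11b+ cells. In CD11c+CD11b- cells it was at 146 CPM and then 134, 107, 108 and 120 CPM, so that the responses differed by 0.83 ± 0.12 (edgeR adjusted p = 0.0333). DESeq2 called 11, and with low-count genes kept 0 passed. Between CD11c-CD11b+ and CD11c+CD11b- cells 0 of 42 passed in edgeR (0.0105% of all genes), with 10 at an unadjusted p under 0.05 and 1 in DESeq2. Between CD11c+CD11b+ and CD11c-CD11b+ cells 0 passed (0.388% of all genes), with 6 at an unadjusted p under 0.05 and 2 in DESeq2.

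The antibodies were compared within the 4 irradiated pools, where 2 libraries had each antibody and 2 did not, which left 1 residual degree of freedom. Anti-SIRPa passed no gene in CD8 T cells (0 of 41 in edgeR, with 0.170% of all genes), in CD11c+CD11b+ cells (0 of 42, with 0.154%) or in CD11c-CD11b+ cells (0 of 41, with 0% of all genes). At an unadjusted p under 0.05 these were 2, 3 and 3 genes, and DESeq2 called 0 in each. The medians were 0.02, 0.02 and -0.18, against 0.02, 0.00 and 0.00 over all genes.

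In CD11c+CD11b- cells anti-SIRPa went with lower levels. Of 40 genes tested 38 had a negative log2 fold change, the median was -0.28 against 0.00, and 2 were lower in the test (0.602% of all genes). In 24 of the 42 both libraries with anti-SIRPa lay below both without it, as in 15.5% of all genes. Grn was at 465 and 447 CPM without and 264 and 315 CPM with anti-SIRPa (log2 fold change -0.68 ± 0.1; edgeR adjusted p = 0.0413). Ctsz, a carboxypeptidase, was at 257 and 255 CPM without and 158 and 192 CPM with it (-0.58 ± 0.0968; edgeR adjusted p = 0.0486). Of the markers, 4 of 8 plasmacytoid, 4 of 7 mature dendritic cell, 1 of 8 cDC2 and 1 of 10 CD8 T genes were lower too. In the other direction, 1 of 7 fibroblast and 1 of 7 inflammatory monocyte genes were higher. The part of these markers was not tested. RLE scaling called 6 genes and DESeq2 4, and none passed with low-count genes kept, with the filter by design or without the anti-PD-1 term.

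Anti-PD-1 went with lower lysosomal RNA in the CD8 T libraries. Of 41 genes tested 10 were lower and 0 higher (5.71% of all genes were lower), the median log2 fold change was -0.17 against 0.01, and in 21 of the 42 both libraries with anti-PD-1 lay below both without it, as in 24.5% of all genes. The 10 were Ctsh, Ctsl, Ctsz, Lgmn, Gla, Gaa, Asah1, Psap, Cd68 and Grn. Lgmn was at 457 and 361 CPM without and 203 and 296 CPM with anti-PD-1 (log2 fold change -0.73 ± 0.161; edgeR adjusted p = 0.0295). Gla was at 21.2 and 26.0 CPM without and 12.1 and 17.0 CPM with it (-0.72 ± 0.138; edgeR adjusted p = 0.0194). Grn was at 371 and 354 CPM without and 184 and 279 CPM with it (-0.69 ± 0.127; edgeR adjusted p = 0.0176).

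Gaa and Ctsh followed at -0.63 ± 0.0874 and -0.62 ± 0.127, and the other 5 lay between -0.61 and -0.42. In all 10 the 2 groups did not overlap, and the RT with anti-PD-1 library was the lowest of 4. Ctsd, Smpd1 and Glb1 were higher in both libraries with anti-PD-1 and did not pass in edgeR. Ctsd was at 832 and 730 CPM without and 968 and 932 CPM with it. DESeq2 called 8 genes, of which 7 were among the 10 lower ones and the other was Ctsd, higher. Macrophage and T cell markers moved with these genes. All 12 macrophage markers were below in both libraries with anti-PD-1, 10 of them in the test, with a sum of 2780 and 2557 CPM without and 1229 and 1957 CPM with it. All 10 CD8 T markers were higher, with a sum of 4095 and 3829 CPM without and 5970 and 5659 CPM with it. The part of these markers was not tested. None of the 10 passed when low-count genes were kept or when the anti-SIRPa term was left out.

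**Figure D5:**
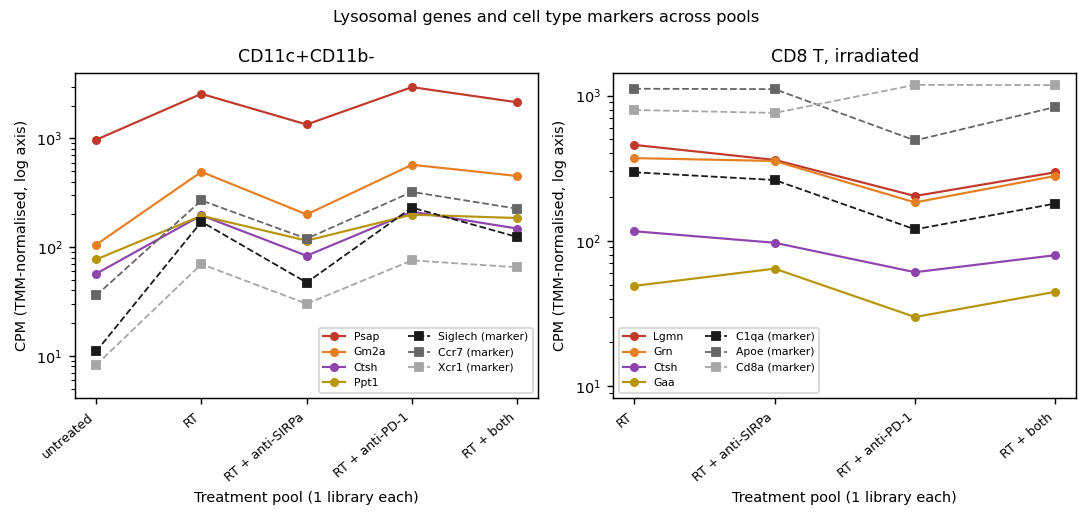
Levels in CPM on a log axis of 4 lysosomal genes (solid lines) and 3 cell type markers (dashed lines) across the pools, in CD11c+CD11b- cells on the left and in the 4 irradiated CD8 T libraries on the right. Each point is 1 library, and lines only join the points of a gene. On the left all 7 genes are lowest in the untreated and the RT with anti-SIRPa pools, and on the right the lysosomal genes are lowest in RT with anti-PD-1, as are C1qa and Apoe, while Cd8a is high there.

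In the myeloid populations anti-PD-1 passed few genes. Cln3 was higher in CD11c+CD11b+ cells, at 59.6 and 55.6 CPM without and 72.6 and 69.5 CPM with it (log2 fold change 0.34 ± 0.0808; edgeR adjusted p = 0.047; 3.09% of all genes were higher). Man2b1, a lysosomal alpha-mannosidase, was higher in CD11c+CD11b- cells, at 268 and 178 CPM without and 310 and 256 CPM with it (0.40 ± 0.0991; edgeR adjusted p = 0.044; 4.27% of all genes were higher). The libraries of Man2b1 overlapped. Neither gene passed with low-count genes kept, with the filter by design, or with the anti-SIRPa term left out, and DESeq2 called neither; the 2 genes it called in CD11c+CD11b- cells were Gla and Psap. With anti-PD-1, 6 of 8 plasmacytoid, 4 of 8 cDC1 and 4 of 7 mature dendritic cell markers were also higher in CD11c+CD11b- cells, and 5 of 12 macrophage and 6 of 7 fibroblast markers lower. The part of these markers in the Man2b1 difference was not tested.

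In CD11c-CD11b+ cells nearly all of the genes had higher values with anti-PD-1. Of 41 genes tested 40 had a positive log2 fold change, with a median of 0.35 against 0.01 over all genes, and in 32 of the 42 both libraries with anti-PD-1 lay above both without it, as in 22.8% of all genes. None passed in edgeR (0% of all genes did), 17 had an unadjusted p under 0.05, and DESeq2 called 10, all higher. Atp6v0d2 was at 11 and 4.81 CPM without and 27.7 and 15.6 CPM with anti-PD-1 (log2 fold change 1.53 ± 0.177; edgeR adjusted p = 0.125). Lgmn was at 1028 and 648 CPM without and 1508 and 1323 CPM with it (0.82 ± 0.217; edgeR adjusted p = 0.172). The macrophage markers in this population summed to 6274 and 4518 CPM without and 8700 and 8769 CPM with anti-PD-1. Its 9 neutrophil markers summed to 698 and 3267 CPM without and 1681 and 1066 CPM with it. The highest of these sums was in the RT with anti-SIRPa library, 1 of the 2 without anti-PD-1. The part of the macrophage and neutrophil markers was not tested.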

How the data were processed

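The authors deposited 1 table of estimated counts per transcript for the 20 libraries. All values were whole numbers and were used unrounded. The submitters' processing notes name FastQC 0.11.8, HISAT2, StringTie, edgeR 3.34.0 and the build GRCm38. Versions of HISAT2 and StringTie, and the use of strand in counting, were not given in the sources used here. Of 142699 transcripts 141469 matched the GENCODE M21 annotation and were summed to genes. The 1230 others held at most 0.4% of a library. No 2 libraries agreed within sampling noise: the smallest chi-square per degree of freedom over 190 pairs was 12.2.

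Counts were analysed in R 4.3.3 with edgeR 4.0.16 (filterByExpr with populations as groups, count minimum 10, total minimum 15, TMM, quasi-likelihood F-test) and DESeq2 1.42.0, and in Python 3.11.15. P-values were adjusted over all genes tested by the Benjamini-Hochberg method at 0.05. Standard errors are approximate, from the fold change and its F statistic. Per the labels, each treatment's tumours were pooled once and then sorted, so populations were paired by pool, with the pool as a term. Irradiated pools were set against the 1 untreated pool, which was assumed to vary like them, and antibodies were fitted additively in the irradiated pools. CPM used TMM scaling over all 20 libraries. The fit was tested on simulated data for irradiation in CD11c+CD11b+ cells, over 17527 genes. There 77 of 100 genes changed 2-fold and 100 of 100 changed 4-fold were recovered, and 12 unchanged genes were called. The simulation gave every gene the same scatter (dispersion) and held no antibody or pool effects, unlike the real libraries. It therefore does not give the share of real changes that the test would find.

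The 42 genes, the 6 pathway lists, the 11 marker lists and the comparisons were chosen with earlier results of these data known. Values per library were given for up to 5 genes per direction with the largest fold changes at 10 CPM or more, for the 5 highest per kb and for genes called in a treatment test. The 3 interaction tests and the filter by the design matrix were added after the data were seen. Alternatives were RLE scaling, no filter, DESeq2, no pool term, other antibody terms and leaving out each pool.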

Additional observations from a re-analysis of the deposited data

Results flagged for a closer look

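In 11 genes all 4 irradiated libraries of CD11c+CD11b+ cells lay above the untreated one while all 4 of CD11c+CD11b- cells lay below it. The difference of the 2 responses on the log2 scale, from edgeR's interaction term, was 1.02 for Ctsl (adjusted p = 0.114), 0.56 for Hexa (0.307), 0.52 for Naglu (0.244), 0.26 for Manba (0.366), 0.57 for Asah1 (0.193), 1.04 for Lipa (0.0254), 0.79 for Lamp1 (0.0798), 0.83 for Lamp2 (0.0333), 0.44 for Scarb2 (0.266), 0.83 for Tpp1 (0.0648) and 0.65 for Atp6ap1 (0.117), each with its adjusted p in parentheses. Lipa and Lamp2 passed, and the other 9 did not. Ctsl was at 508 CPM untreated and 727, 767, 800 and 763 CPM irradiated in CD11c+CD11b+ cells, and at 366 CPM and then 345, 263, 254 and 221 CPM in CD11c+CD11b- cells. Each direction rests on 1 untreated library per population.

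The library labelled untreated CD8 T, which entered no main test, held 2.66% of its counts in the 42 genes, against 0.602 to 0.856% in the irradiated CD8 T libraries. Its T cell markers summed to 264 CPM, against 3829 to 5970 CPM there.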

How the results depend on the processing

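Of 1447 values of called genes under other settings, 1287 kept their direction and call, 160 kept the direction but no longer passed, and 0 reversed. Most of these values came from the comparisons of populations. For anti-PD-1 in CD8 T cells 23 kept the call and 27 did not, and for anti-SIRPa in CD11c+CD11b- cells 4 and 6. Irradiation in CD11c+CD11b+ cells gave 5 and 4, and the interaction with CD11c+CD11b- cells 6 and 2. Anti-PD-1 gave 1 and 4 in each of CD11c+CD11b+ and CD11c+CD11b- cells. The counts of called genes that moved by over 1.5 times were as follows. CD11c+CD11b+ against CD11c-CD11b+ cells gave 26, but 9 without the pool term (no replicate block) and 13 to 29 when 1 pool was left out. Irradiated CD8 T against CD11c+CD11b+ cells gave 40, but 16 with all 5 pools. Irradiation in CD11c+CD11b+ cells gave 1, but 0 with no filter and with the filter by design, 16 with DESeq2, 17 with antibody terms and 0 to 15 when 1 pool was left out. In CD11c+CD11b- cells irradiation gave 0, but 6 with DESeq2, 9 with antibody terms and 0 to 11 when 1 pool was left out, and in CD11c-CD11b+ cells 0, but 3 with DESeq2 and 0 to 11. Anti-SIRPa in CD11c+CD11b- cells gave 2, but 6 with RLE, 4 with DESeq2 and 0 with no filter, the filter by design or the anti-PD-1 term dropped. Anti-PD-1 in CD8 T cells gave 10, but 0 with no filter or the anti-SIRPa term dropped. Anti-PD-1 gave 1 in CD11c+CD11b+ cells, but 0 with no filter, the filter by design, DESeq2 or the anti-SIRPa term dropped. It gave 1 in CD11c+CD11b- cells, but 5 with RLE, 2 with DESeq2 and 0 with no filter, the filter by design or the anti-SIRPa term dropped, and 0 in CD11c-CD11b+ cells, but 10 with DESeq2. The interaction of CD11c+CD11b+ with CD11c+CD11b- cells gave 2, but 0 with no filter and 11 with DESeq2, and the other 2 interactions gave 0, but 1 and 2 with DESeq2. The cause of these shifts was not tested. Leaving out a pool in an antibody test left no residual degree of freedom, so it was not run. Median fold changes of all genes under TMM and RLE stayed within 0.1 of 0. Each group had 1 library and each population 1 untreated pool, so no spread within a group could be measured. Ctsf and Atp6v0d2 were at 0 in some libraries, and small differences in them were not detectable at this depth.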

Other observations

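Other genes of the pathway also differed in their response to irradiation between populations. Igf2r, the mannose 6-phosphate receptor, was at 29.1 CPM in the untreated CD11c-CD11b+ library and at 81.1, 63.3, 137 and 104 CPM in the irradiated ones, but at 27.4 and then 30.5, 24.7, 38.8 and 39.6 CPM in CD11c+CD11b+ cells. The response of CD11c+CD11b+ minus that of CD11c-CD11b+ cells was -1.39 ± 0.203 on the log2 scale (edgeR adjusted p = 0.0375). Arsb differed between CD11c+CD11b+ and CD11c+CD11b- cells by -0.85 ± 0.124 (edgeR adjusted p = 0.0333). It was at 63.3 CPM untreated and 42.1 to 54.4 CPM irradiated in the first, and at 355 CPM and then 445 to 529 CPM in the second.

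Pla2g15, a lysosomal phospholipase, was the 1 gene of the pathway lists that passed as higher after irradiation in CD11c+CD11b+ cells, at 122 ± 9.52 CPM (SD, 4 pools) against 63.7 CPM (log2 fold change 0.93 ± 0.131; edgeR adjusted p = 0.0475). All 12 macrophage markers were also above the untreated library in these 4 pools, and their part in the Pla2g15 difference was not tested. In CD8 T libraries with anti-PD-1, Arsb, Pld3, Igf2r, Gnptab, Gnptg and Cst7 were higher, with log2 fold changes of 0.33 to 0.58. All 10 CD8 T markers were higher there as well, and their part in these differences was not tested. In the same libraries Cd63, a tetraspanin of late endosomes, was lower by -0.93 ± 0.0934 (edgeR adjusted p = 0.00188), as it was in CD11c+CD11b+ cells (-0.69 ± 0.0885) and CD11c+CD11b- cells (-0.78 ± 0.0881) with anti-PD-1. Of 7 fibroblast markers, 3 were also lower in CD8 T cells, 4 in CD11c+CD11b+ cells and 6 in CD11c+CD11b- cells. Their part in the Cd63 difference was not tested. Cst3, which encodes cystatin C, was at 177, 1220, 487, 1309 and 1027 CPM in the 5 CD11c+CD11b- libraries.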
